A study of Mus musculus with 16 samples.

Results

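E2f4 summits were placed inside the regions marked by H3K4me2 and H3K27ac in regenerating wild-type mouse liver. A summit is the base at which a called E2f4 peak is highest, and a region is a stretch of chromatin called as enriched for a histone mark. All E2f4 peaks of 2 wild-type libraries on the autosomes were taken. Of 1741 summits in replicate 1 and 1033 in replicate 2, 1453 and 978 lay in a region of at least 1 of the marks. Over all chromosomes the lists held 1791 and 1058 peaks, and the marks had 65454 (H3K4me2) and 61992 (H3K27ac) autosomal regions, from 1 library each.

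The study measured E2f4, H3K4me2 and H3K27ac by chromatin immunoprecipitation and sequencing in Arid1a wild-type and liver-specific knockout mice. The wild-type group had the genotype Arid1a Fl/Fl, with no Cre named in its labels, on a C57/B6 and 129 mix at postnatal day 90. Livers were taken 40 h after partial hepatectomy and frozen, then fixed in 1% formaldehyde for 20 min before hepatocytes were isolated. Of 16 samples, the 4 wild-type peak lists were used. The labels do not say that the 2 E2f4 libraries came from separate animals, so their spread may be technical. The chromatin came from many cells at once, and whether a summit and the region around it came from the same cells cannot be told apart.

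E2f4 is an E2F family member that binds DNA with the pocket proteins p107 and p130. It is also an E2F of the DREAM complex, which holds cell cycle genes silent in resting cells. E2F sites in DNA serve mainly genes of DNA replication, and CHR elements, bound by the MuvB core of DREAM, serve mainly genes of mitosis. H3K4me2 is found at promoters and enhancers, and H3K27ac at active ones among them. After partial hepatectomy hepatocytes leave quiescence and divide.

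The tissue label was checked on marker genes. Of 10 hepatocyte markers, 9 had their start in a region of each mark, with a median H3K4me2 width of 13510 bp, and Serpina1a was in no H3K27ac region. Markers of other cell types were marked as well: 5 of 5 endothelial, 2 of 5 macrophage, 2 of 5 lymphocyte, 2 of 5 stellate and fibroblast and 1 of 5 cholangiocyte genes had their start in H3K4me2. H3K27ac held 5 of 5, 5 of 5, 1 of 5, 4 of 5 and 1 of 5 of the same genes. No start of these markers lay in an H3K4me2 region with an E2f4 summit. Of all 13015 coding genes with a start in an H3K4me2 region, 860 (6.61%) had a summit of both libraries in it and 828 of 1 library. Beside these shares the marked markers are too few for their lack of summits to be read as a difference. The part of other liver cells in the summits and regions was not tested.

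The DNA under 8 summits is shown first, to give the letters at gene starts on which the later positions are measured. The stretches below run 5′ to 3′ on the gene's strand in RefSeq's assembly GRCm38.p6, from up to 60 bases before the summit of replicate 1, which is base 61 of each, to 60 bases after it or to about 25 bases past the gene start, whichever came first. Capitals mark matches to an E2F motif (TTTCCCGC, TTTCGCGC, TTTGCCGC or TTTGGCGC) or a CHR motif (TTTGAA or TTCGAA), on either strand. The genes were chosen after their values were seen, to show strong summits, a region centred on its summit and a summit with no match.
E2f3 (chr13:29986039-29986137, minus strand): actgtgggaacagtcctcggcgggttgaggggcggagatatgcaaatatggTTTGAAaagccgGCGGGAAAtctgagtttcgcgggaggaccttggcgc
Bub1 (chr2:127831835-127831902, minus strand): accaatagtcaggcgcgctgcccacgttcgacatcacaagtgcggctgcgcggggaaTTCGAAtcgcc
Iqgap3 (chr3:88081958-88082075, plus strand): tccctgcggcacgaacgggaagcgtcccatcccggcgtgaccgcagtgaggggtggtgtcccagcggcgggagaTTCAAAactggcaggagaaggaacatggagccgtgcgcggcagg
Cdca5 (chr19:6085006-6085121, plus strand): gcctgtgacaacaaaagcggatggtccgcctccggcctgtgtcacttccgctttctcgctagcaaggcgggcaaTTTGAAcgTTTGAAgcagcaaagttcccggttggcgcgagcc
Ttk (chr9:83834634-83834713, plus strand): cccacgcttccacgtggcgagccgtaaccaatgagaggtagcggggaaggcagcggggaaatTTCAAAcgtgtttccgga
Cdc7 (chr5:106964271-106964346, plus strand): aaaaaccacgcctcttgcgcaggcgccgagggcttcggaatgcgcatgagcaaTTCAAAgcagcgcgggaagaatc
Spdl1 (chr11:34833617-34833691, minus strand): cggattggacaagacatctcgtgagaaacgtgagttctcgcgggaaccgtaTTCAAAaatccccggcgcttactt
Rrm2 (chr12:24708125-24708245, plus strand): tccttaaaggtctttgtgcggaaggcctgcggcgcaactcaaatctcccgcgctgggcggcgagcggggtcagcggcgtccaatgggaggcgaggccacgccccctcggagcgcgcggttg

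In 7 of these 8 stretches a match was found within the bases shown. E2f3, an activating E2F, held an E2F and a CHR match, and Cdca5, whose product sororin protects sister chromatid cohesion, held 2 CHR matches side by side. Bub1 and Ttk, kinases of the spindle checkpoint, Iqgap3, a scaffold protein of dividing cells, Cdc7, a kinase that fires replication origins, and Spdl1, a dynein adaptor at kinetochores, held 1 CHR match each. Rrm2, a subunit of ribonucleotide reductase, held none of these letters.

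Across promoter windows of 250 bases before to 50 after the gene start, 473 genes had a summit of both libraries in the window. An E2F match was in 26.0% of these windows (123 genes, exact Clopper-Pearson 95% interval 22.1 to 30.2), in 2.68% of 9219 windows whose H3K4me2 region had no summit, and in 2.92% of all 16457 windows. CHR matches were in 40.0% (189 genes), 11.8% and 17.3%. CCAAT, the letters bound by NF-Y and searched on both strands, was in 61.5% (291 genes), 35.8% and 38.9%. Each of the 3 motifs was thus more frequent under summits than in marked windows without one, at the same median GC content of 61.3% and a median of 25 against 21 CpG dinucleotides. The 4 E2F spellings cover only part of what E2F proteins bind, and a match is a spelling and not a measured site.

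The nearest E2F match lay a median of 19.5 and 16.5 bp from the summit in replicates 1 and 2, the nearest CHR match 17.5 bp in both, and the nearest CCAAT match 28 and 31 bp. Ranked by the strength of the peaks (mean rank of the −log10 q-value over the libraries), the strongest quartile of the 473 windows held a CHR match in 63.9%, and the weaker ones, in order, in 36.4%, 33.1% and 26.3%. E2F matches had no such order, at 23.5%, 27.1%, 31.4% and 22.03% from the strongest to the weakest quartile. CHR matches thus fell along the order of peak strength, from 76 of 119 windows to 31 of 118.

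Most E2f4 summits lay in both marks. In replicate 1, 1428 of 1741 summits (82.0%, 95% interval 80.1 to 83.8) were in an H3K4me2 region, and in replicate 2, 970 of 1033 (93.9%, 92.3 to 95.3), a mean of 88.0% ± 8.40 (SD, n = 2 libraries). H3K27ac regions held 1282 (73.6%, 71.5 to 75.7) and 850 (82.3%, 79.8 to 84.6), a mean of 78.0% ± 6.12 (SD, n = 2 libraries). Intervals cover counting error only. Both marks were present at 1257 and 842 summits, H3K4me2 alone at 171 and 128, H3K27ac alone at 25 and 8, and neither at 288 and 55. Summits in neither mark had a median distance of 64649 and 49212 bp to the nearest coding start and came from weaker peaks, with a median fold enrichment of 5.18 and 5.75, the authors' value for each peak, against 7.42 and 9.89 where both marks were present.

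The share in H3K4me2 followed peak strength and support. Of summits whose peak overlapped a peak of the other library by at least 1 bp, 97.2% and 97.8% lay in H3K4me2, and of those called in a single library 69.8% and 82.2%. From the strongest to the weakest quartile of −log10 q-values the share fell from 98.9% to 58.9% in replicate 1 and from 99.6% to 82.9% in replicate 2. The H3K27ac share did not fall in step: it was 82.1%, 87.4%, 68.0% and 57.0% in replicate 1, and 80.7%, 83.7%, 86.0% and 78.7% in replicate 2. In both libraries the strongest quartile had a lower H3K27ac share than the next, with overlapping 95% intervals.

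The summits in H3K4me2 without H3K27ac came from the stronger peaks. Their median fold enrichment was 9.47 in replicate 1 and 15.1 in replicate 2, against 7.42 and 9.89 in both marks. An H3K27ac region began within 1000 bp on a single side of 103 of 171 (60.2%) and 76 of 128 (59.4%) of them, on both sides of 9 and 6, and on neither side of 59 and 46. Where the acetylated side could be read against a gene start within 1000 bp, it was the side of the gene body in 55 of 78 (70.5%, 95% interval 59.1 to 80.3) and 49 of 60 (81.7%, 69.6 to 90.5) summits. Named genes with H3K4me2 but no H3K27ac over the summit included Bub1, where a short H3K27ac region lay on the upstream side. Others were Mybl2, the B-Myb factor that joins MuvB in late cell cycle, Gins3, a subunit of the replicative helicase, and Neil3, a DNA glycosylase. The shared region of the histone genes H3c8, H2ac10 and H4c8 was also of this kind. So were those of Sec11c, a signal peptidase subunit, and Matn3, an extracellular matrix protein. At Mybl2 the summits had fold enrichments of 21.9 and 25.5 in an H3K4me2 region of 1492 bp, and at Neil3 32.8 and 61.8 in one of 1592 bp.

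Summits lay toward the middle of the regions. Position was counted from the end of lower coordinate to the other end as a percentage of width. The median distance from the middle was 17.7% and 16.9% of the width in H3K4me2 (17.3% ± 0.519, SD, n = 2 libraries), and 17.8% and 18.5% in H3K27ac (18.2% ± 0.469, SD, n = 2 libraries), where an even spread would give 25%. The central 33.3% of the width held 47.3% and 49.2% of the summits in H3K4me2 and 47.3% and 45.6% in H3K27ac. The outermost 10% at each end, which together hold 20% of an even spread, had 4.90% and 3.92% in H3K4me2 and 6.08% and 6.24% in H3K27ac. The libraries differed by less than 2 percentage points in each of these shares.

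**Figure D1:**
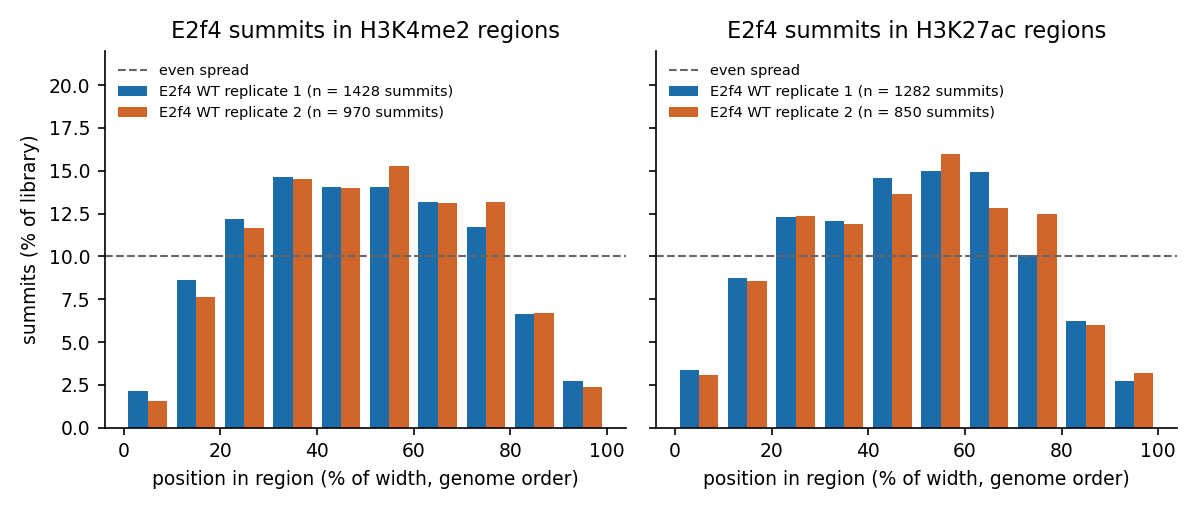
Position of E2f4 summits within H3K4me2 regions (left) and H3K27ac regions (right), as the percentage of each library's summits in each 10% step of the region's width, in genome order, for the E2f4 libraries of wild-type liver (blue, replicate 1; orange, replicate 2). The dashed line is an even spread; the outermost steps together held 4.90% and 3.92% of the summits in H3K4me2 and 6.08% and 6.24% in H3K27ac, the lowest bars of each panel.

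In bases, the nearer edge was a median of 925 and 891.5 bp away in H3K4me2 and 692.5 and 621.5 bp in H3K27ac. Within 200 bp of an edge lay 27 of 1428 and 12 of 970 summits in H3K4me2, and 48 of 1282 and 41 of 850 in H3K27ac. Position depended on width. In H3K4me2 regions of 1000 to 2000 bp the median distance from the middle was 14.0% and 13.3% of the width, and in regions of at least 8000 bp it was 31.5% and 29.8%, with 18.3% and 22.8% of the summits in the central 33.3%. H3K27ac gave 15.1% and 15.6% against 33.7% and 30.5% at the same widths. In the widest regions summits were therefore not central in either mark or library.

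The libraries placed their summits on nearly the same base. In the 752 H3K4me2 regions with a summit in both libraries, the summits were a median of 16 bp apart, 86.3% were within 50 bp, and 12 regions had them more than 200 bp apart. The largest distance was 5921 bp. A region usually held a single summit: 1316 of 1371 occupied H3K4me2 regions in replicate 1 and 930 of 950 in replicate 2. The regions with the most separate peaks were those of Jade1, a scaffold of the HBO1 acetyltransferase, and chr6:134925801-134930313, with 3 each, all 3 as summits of replicate 1 and 1 in replicate 2. Bard1, the partner of Brca1, Ptma, prothymosin alpha, and Rasal2, a Ras GTPase-activating protein, were next by position, with 2 each. Ptma had 2 summits in replicate 1 and none in replicate 2.

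Read along the gene, the summits were off centre in one direction. Regions were oriented where they held a coding start and all annotated starts in them, coding or not, lay on a single strand. In 724 and 498 such summits the median position in H3K4me2 was 32.9% and 33.7% of the way from the upstream to the downstream edge, with 888 and 852 bp of the region upstream of the summit and 1796 and 1680.5 bp downstream. The downstream side was the longer in 84.0% and 83.7%. The gene starts of these regions lay at 34.3% and 34.4%, and the summits were a median of 39 and 38.5 bp upstream of the start. Summits thus sat where starts sat, and not at the centre. In H3K27ac the median position was 40.4% and 41.7% (n = 626 and 421), with the downstream side longer in 68.2% and 66.7%.

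Starts with E2f4 were nearer the middle of their region than starts without. In single-strand H3K4me2 regions the start lay at 35.04% of the width where both libraries had a summit (393 regions), at 30.8% where 1 had (396 regions) and at 28.8% where neither had (7220 regions). With a summit in both libraries and with none, the marked stretch upstream of the start was a median of 863 against 720 bp, and downstream 1589 against 1697.5 bp. The downstream side of H3K4me2 was the longer at nearly the same rate, 85.8% with both summits and 86.5% with none, and 88.6% with a summit in 1 library. In H3K27ac the start lay at 44% (327 regions) against 33.8% (5565 regions), and at 36.4% with a summit in 1 library (355 regions). Both against none gave 743 against 723 bp upstream and 923 against 1376 bp downstream. The downstream side of H3K27ac was the longer in 63.6% with and 76.5% without a summit. Acetylated regions with both summits were thus shorter into the gene and about as long before it, while those with a summit in 1 library reached 1511 bp into it.

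Of the summits in H3K4me2, 85.9% and 88.0% lay within 1000 bp of a coding start, and 68.3% and 71.2% within 250 bp. Some of these starts are gene ends chosen by their H3K4me2, which builds in part of the nearness. A start of known strand was the nearest for 1032 of the 1227 and 711 of the 854 summits within 1000 bp. Of those within 1000 bp of a start of known strand, 63.7% and 65.0% were upstream. Coverage around the summit was read for 702 and 485 oriented summits in H3K4me2, fewer than the 724 and 498 above. At the summit itself H3K27ac covered 87.0% and 85.6% of them, and at 500 bp downstream 81.8% and 79.2%. At gene starts without a summit it covered 72.7%, and 72.5% at 500 bp downstream (n = 7220). At 2000 bp downstream the values were 28.3% and 22.7% around summits and 29.7% around starts without one. H3K27ac was thus the more frequent at the summits and 500 bp into the gene, and not at 2000 bp.

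**Figure D2:**
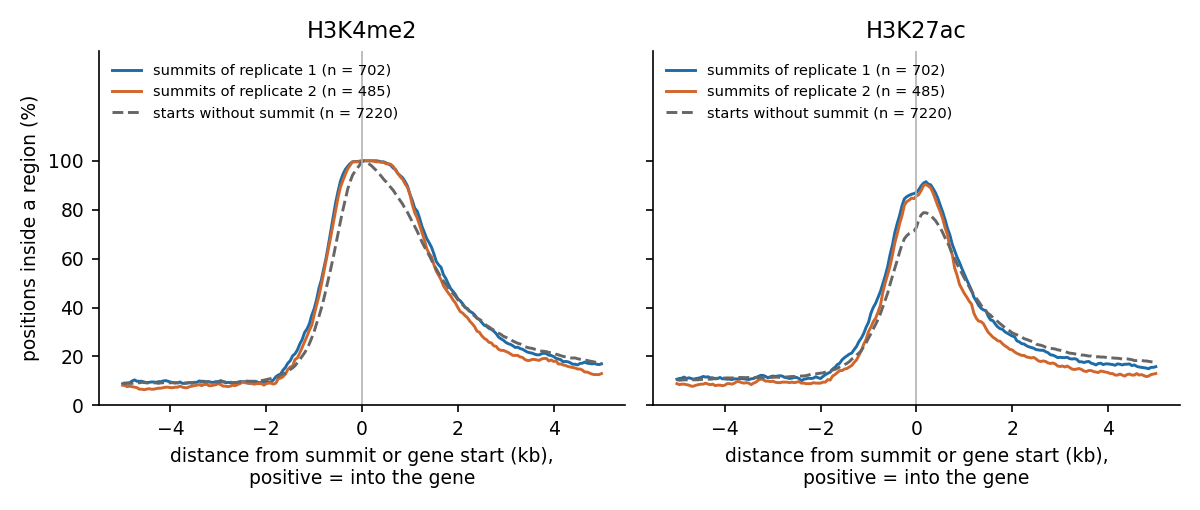
Percentage of positions inside an H3K4me2 region (left) or an H3K27ac region (right) against distance in kb, positive into the gene, around E2f4 summits of replicate 1 (blue) and replicate 2 (orange) in single-strand H3K4me2 regions, and around coding starts in such regions without a summit (dashed grey). H3K27ac covered 87.0% and 85.6% of summits and 72.7% of starts without one; H3K4me2 is at 100% at 0 by the choice of summits and starts.

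Few marked regions carried E2f4. A summit of replicate 1 was in 1371 H3K4me2 regions (2.09% of 65454) and one of replicate 2 in 950 (1.45%), and 752 regions had both (1.15%). In H3K27ac it was 1229 (1.98% of 61992), 835 (1.35%) and 650 (1.05%). The doubly occupied regions were 2.57% of the length covered by H3K4me2 and 1.77% of that covered by H3K27ac. Nearly all of them held a coding start. Among 12159 H3K4me2 regions with a coding start, 698 had a summit in both libraries (5.74%), and among 50065 with no gene end, 25 had (0.0499%). In H3K27ac these were 600 of 9634 (6.23%) and 23 of 49106 (0.0468%). The mean share by library, 1.77% in H3K4me2 and 1.66% in H3K27ac, was 4.99% and 5.11% among regions whose −log10 q-value was 5 or more.

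Regions with a coding start were occupied more often when annotated starts lay on both strands than when all lay on a single strand. Starts of non-coding genes counted for the strand as well. In H3K4me2, 170 of 1831 (9.28%, 95% interval 7.99 to 10.7) against 393 of 8009 (4.91%, 4.44 to 5.40) had a summit in both libraries. Replicate 1 alone gave 16.2% against 8.65%, and replicate 2 11.1% against 6.11%. In H3K27ac the shares were 9.80% of 1582 and 5.23% of 6247. Regions with starts on both strands were wider, with medians of 3570.5 against 2542 bp where both libraries had a summit. Within 2000 to 4000 bp, over regions with any annotated start, coding or not, the shares were 10.9% (90 of 826) and 5.75% (207 of 3598). Cdca5 with Zfpl1, a Golgi zinc-finger protein, and Brca1, the repair ubiquitin ligase, with Nbr1, an autophagy receptor, were named regions of this kind.

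H3K4me2 regions with a coding start that also overlapped H3K27ac were occupied in 6.40% (669 of 10453), and those without H3K27ac in 1.70% (29 of 1706). These groups also differed in width: among regions without a summit the medians were 3097.5 bp with and 1084 bp without H3K27ac. Occupancy varied with width as well, and the 2 were not separated. No H3K27ac region outside H3K4me2 had a summit in both libraries (0 of 21584, which allows a share of up to 0.0171%), and 7 had one in a single library. Of these regions only 68 held a coding start, and 0 of the 68 had a summit in both libraries (up to 5.28%). They were also narrow, with a median of 521 bp among those without a summit. Lack of H3K4me2 was therefore not separated from lack of a coding start or from width.

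Width separated occupied from unoccupied regions in the whole lists, and much less among regions with a coding start. Over all regions, H3K4me2 had a median width of 2798 bp with a summit in both libraries, 3209 bp with a summit in 1 library and 915 bp with none, a ratio of 3.06 for the first to the last. Taken by library the ratio was 3.23 and 3.13. With a coding start the medians were 2830.5, 3445 and 2756 bp, a ratio of 1.03, or 1.10 and 1.07 by library. In regions with no gene end they were 2197 bp with both summits (25 regions) and 730 bp with none. Over all regions the mean ratio of the libraries, 3.18, became 1.45 among regions whose −log10 q-value was 5 or more. With a coding start it went from 1.08 to 0.987 for E2f4 peaks whose −log10 q-value was 10 or more, so no direction can be given there.

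H3K27ac turned the direction. Over all regions it was 1959 bp with a summit in both libraries, 2632 bp with 1 and 1012 bp with none (ratio 1.94; 2.28 and 2.04 by library). With a coding start it was 1964.5, 2685 and 2447 bp, so that doubly occupied regions were narrower than unoccupied ones (ratio 0.803) and regions with a summit in 1 library were wider. By library the ratio was 0.943 and 0.853. It was below 1 on a single strand (1810 against 2333 bp) and on both strands (2451 against 2825 bp). Among H3K27ac regions whose −log10 q-value was 5 or more it was below 1 over all regions as well, with a mean of 0.926 over the libraries against 2.16 without that limit.

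**Figure D3:**
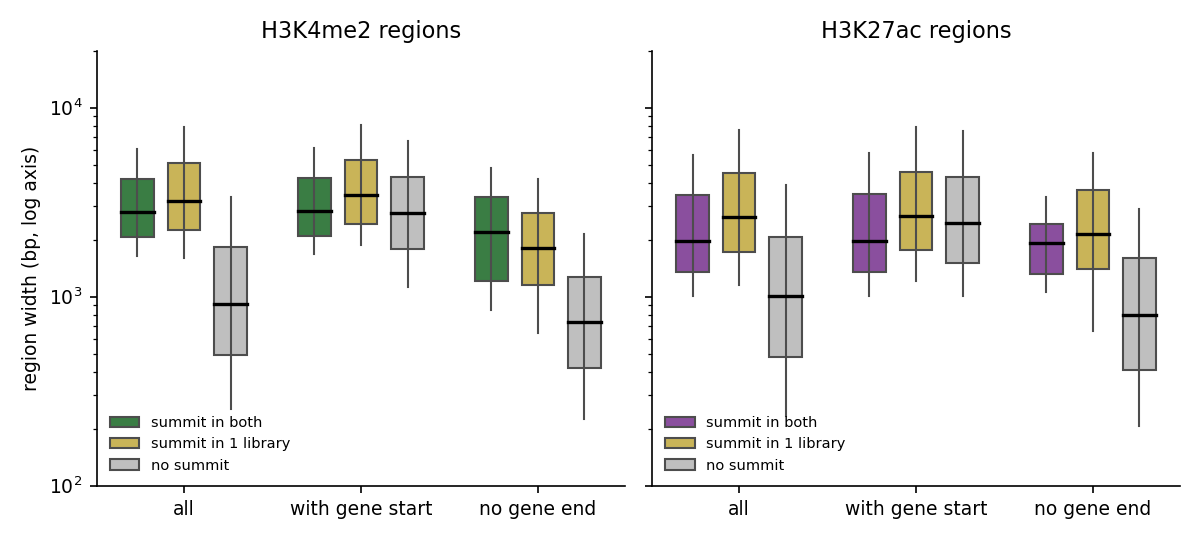
Width in bp, on a log axis, of H3K4me2 regions (left) and H3K27ac regions (right) with a summit in both E2f4 libraries, in 1 library and in none, over all regions, regions with a coding start and regions with no gene end. Boxes span the quartiles, the black bar is the median and lines reach from the lowest to the highest decile; the median of doubly occupied H3K27ac regions with a coding start, 1964.5 bp, is below that of unoccupied ones, 2447 bp.

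By width class, double occupancy of H3K4me2 regions with a coding start was 0.737% at 500 to 1000 bp, 5.28% at 1000 to 2000 bp, 7.16% at 2000 to 4000 bp, 5.56% at 4000 to 8000 bp and 4.52% (95% interval 3.15 to 6.26) above. For H3K27ac it was 7.43% at 500 to 1000 bp, 8.49% (7.50 to 9.56) at 1000 to 2000 bp, 5.45%, 4.95% and 3.83% (2.65 to 5.34) above 8000 bp. Double occupancy was thus highest at 2000 to 4000 bp in H3K4me2 and at 1000 to 2000 bp in H3K27ac. In H3K4me2 the interval at 2000 to 4000 bp (6.467 to 7.911) narrowly overlapped that of 4000 to 8000 bp (4.742 to 6.475). In H3K27ac the interval at 1000 to 2000 bp overlapped that of 500 to 1000 bp (5.70 to 9.48). With a summit in at least 1 library the H3K4me2 shares from 1000 bp up were 8.58%, 13.6%, 12.8% and 14.2%, highest in the widest class, and those of H3K27ac 14.6%, 12.7%, 12.5% and 10.9%. Per length, H3K4me2 regions of 2000 to 4000 bp held 23.3 and 16.6 summits per Mb and those of at least 8000 bp 10.1 and 5.55. H3K27ac regions of 1000 to 2000 bp held 19.8 and 15.3 per Mb and the widest 4.62 and 2.69. Across summits, width and −log10 q-value had a Spearman correlation of −0.179 and −0.221 in H3K4me2 (n = 1428 and 970) and −0.249 and −0.228 in H3K27ac (n = 1282 and 850). These are weak, and summits of a library share its depth.

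**Figure D4:**
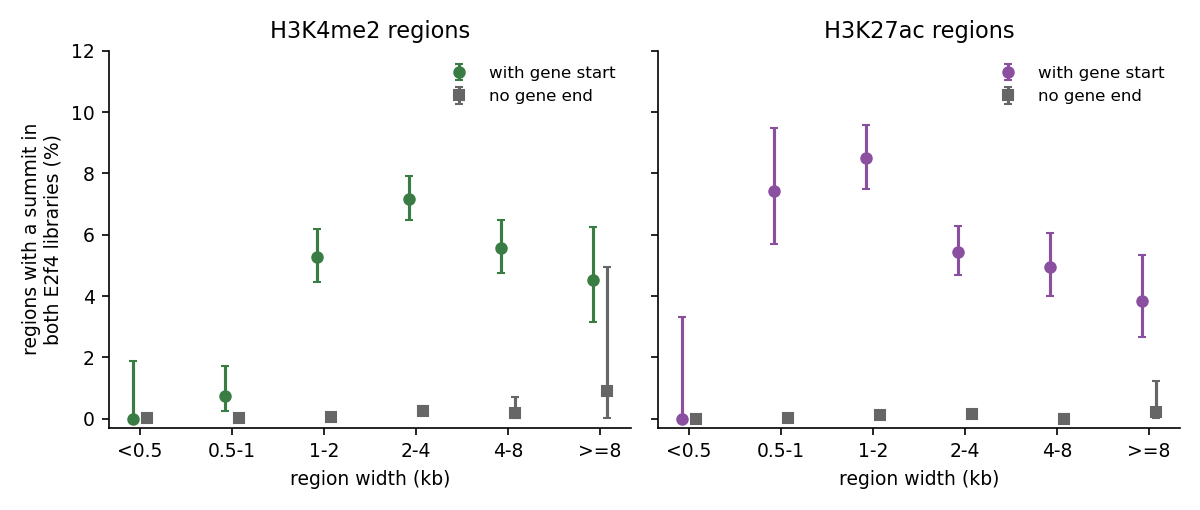
Percentage of H3K4me2 regions (left) and H3K27ac regions (right) with a summit in both E2f4 libraries, by region width in kb, for regions with a coding start (coloured circles) and with no gene end (grey squares), with exact 95% intervals. With a coding start H3K4me2 is highest at 2 to 4 kb, at 7.16%, and H3K27ac at 1 to 2 kb, at 8.49%.

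Genes of mitosis and replicative histone genes were among the strongest regions. Regions were ordered by mean rank of the −log10 q-value over the libraries. The replicative histone genes H3c8, H2ac10 and H4c8 shared a region of 8178 bp (ranks 4 and 4) with the summits at 67.0% in both libraries and no H3K27ac over the summit. E2f3 ranked 5 and 5, at 65.6% of 4285 bp in both libraries, which is 14 and 13 bp upstream of its start.

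Bub1 ranked 8 and 2, with fold enrichments of 53.8 and 107.8. Its H3K4me2 region of 1948 bp had the summits at 37.6% and 38.3%, 17 and 4 bp into the gene. Iqgap3 ranked 2 and 9 in a region of only 993 bp, with H3K27ac over 907 bp. The shared region of Brd8, a subunit of the TIP60 acetyltransferase complex, and Kif20a, a kinesin of cytokinesis, ranked 9 and 3. Cdca5 ranked 10 and 8 and Ttk 11 and 7, with the summits at 52.6% and 52.7% of 2093 bp and at 42.2% and 41.6% of 2022 bp. Ahctf1, the nucleoporin ELYS (ranks 6 and 14), and Msh5, a meiotic recombination protein, with Clic1, an intracellular chloride channel (ranks 12 and 10), followed. Of these 9 regions 7 had H3K27ac over the summit, all but Bub1 and H3c8.

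**Figure D5:**
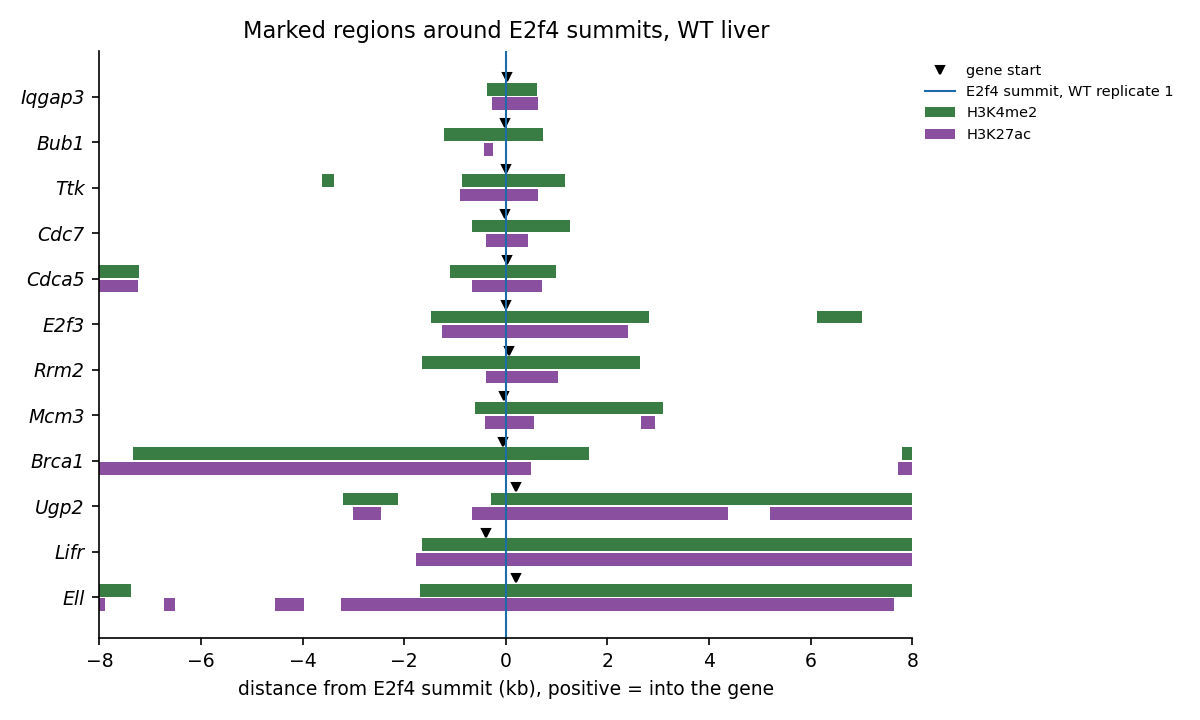
H3K4me2 regions (green) and H3K27ac regions (purple) around the E2f4 summit of replicate 1 (blue line) at 12 named genes, with distance in kb along the gene and black triangles at the gene starts; bars that reach −8 or 8 kb go on beyond. The summit stood near the middle at Ttk (42.2% of the H3K4me2 width) and near an edge at Ugp2 and Ell, and at Bub1 H3K27ac lay beside the summit.

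The widest doubly occupied H3K4me2 regions had summits near an edge in 4 of 5 cases. Ell, an elongation factor of RNA polymerase II, had 21271 bp with the summits at 7.94% and 7.66%. The region chr15:85666715-85686939, which holds no coding start, had 20225 bp and 14.2% in both libraries. Nfib, a nuclear factor I protein, had 18708 bp with the summits at 95.6% and 95.8%. Lifr, the receptor for leukemia inhibitory factor, had 18676 bp and 8.84% and 8.86%. Irf2bp2, a corepressor, was the exception, with 14567 bp, 53.0% and 52.9%, and summits 3469 and 3482 bp into the gene. Their peaks were not among the strong ones: the best rank of the 5 was 359, at Nfib in replicate 2.

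The narrowest were chr1:165018952-165019181 with 230 bp, chr15:97085818-97086329 with 512 bp, Matn3, an extracellular matrix protein, with 733 bp, chr4:154904339-154905164 with 826 bp and chr7:45182018-45182893 with 876 bp. None of these 5 had H3K27ac over the summit, and of them Matn3 was the one with a coding start, 5 and 2 bp from its summits. Their summits lay between 12.3% and 49.3% of the width.

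Farthest from the middle were the summits in chr7:44547342-44548774, at 99.7% in both libraries. This region lies on the gene side of the start of Pold1, the catalytic subunit of DNA polymerase delta, on the minus strand at position 44548815. Pold1's start lay in H3K27ac but not in H3K4me2. Sec11c, a signal peptidase subunit, had its summits at 2.55% and 3.65%, Ugp2, which makes UDP-glucose, at 96.8% and 95.6% of 9086 bp, and Notch1, the cell surface receptor, at 95.3% and 95.9% of 12743 bp. Nfib was also among these 5. Nearest to the middle were Eny2, a subunit of the SAGA complex, with Nudcd1 (49.9% and 50.04% of 5665 bp), chr16:30007770-30010602 (49.9% and 50.2%), Spdl1 (49.7% and 49.9% of 2167 bp), Dazap2 (49.9% and 49.6%) and Map4k1, a kinase of blood cells, with Eif3k, a translation initiation factor subunit (50.3% and 50.2%). The widest of these 5 centred regions was that of Eny2 and Nudcd1.

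Gene lists by function were set beside all coding genes. Members and lists were chosen with earlier results of these data known, so their shares describe the lists and test nothing. Of all 13015 coding genes with a start in an H3K4me2 region, 860 (6.61%) had a summit of both libraries in that region, and 733 of the 860 were in none of the lists. Of 52 such genes of G2/M and mitosis, 46 had one (88.5%, 95% interval 76.6 to 95.6), and of 28 genes of DNA repair and checkpoint, 23 (82.1%). The mitotic genes had a median H3K4me2 width of 2104.5 bp, against 2908 bp for all coding genes. In the regions of the 46, the summits were a median of 11.9% and 11.4% of the width from the middle, and 5 and 2 bp into the gene. Aurka, an aurora kinase, Cenpl, a centromere protein, and Nusap1, a spindle protein, had a summit in 1 library, and Bub3, Cdc25b and Pttg1 in none.

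Of 47 genes of G1/S and DNA replication, 29 had a summit in both libraries (61.7%) and 11 in 1 library. Rrm2 ranked 45 and 6, with fold enrichments of 34.2 and 76.9, at 38.4% and 38.3% of 4296 bp. Cdc7 ranked 42 and 47, Gins3 77 and 43, and Mcm3, a subunit of the replicative helicase, 86 and 37, with its summits at 83.9% and 84.3% of 3698 bp. Replication genes without a summit included Tyms, thymidylate synthase, and Cdk2, the S-phase kinase. Among repair genes Brca1 ranked 21 and 29, at 18.3% and 18.2% of 8983 bp. Neil3 (60 and 15), Mms22l, a partner of Tonsl at stalled forks (68 and 33), and Rad54b, a recombination helicase (122 and 56), followed.

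Of 24 genes of chromatin, condensin and cohesin, 17 had a summit in both libraries (70.8%). Uhrf1, which guides maintenance DNA methylation, had 2 summits in each library in a region of 2733 bp. Hmgb2, a chromatin protein, ranked 74 and 80, and Ncapg2 and Ncaph, condensin subunits, 88 and 122, and 92 and 130. Among the 19 genes of the E2F, RB and DREAM list 10 had both (52.6%, 95% interval 28.9 to 75.6). These were E2f2, E2f3, E2f5, E2f8, Lin9, Lin54, Mybl2, Rbbp4, Rbl1 and Tfdp1. E2f1, E2f7, Lin37, Lin52, Rb1 and Rbl2 had a summit in 1 library, and E2f4 itself, E2f6 and Tfdp2 in none. E2f8, an atypical repressor E2F, had summits at 68.1% and 67.8% of 7077 bp, 349 and 374 bp into the gene, Mybl2 at 32.2% and 31.8% of 1492 bp and Lin9, a MuvB subunit, at 48.3% and 49.1% of 2257 bp. At Lin54, the MuvB subunit that reads the CHR, the strongest summits differed between the libraries, at 25.7% and 58.1% of 5633 bp.

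Genes of the early regeneration response and of hepatocytes had wide regions, and the hepatocyte genes had no summits. Of 21 regeneration and immediate early genes, 2 had a summit in both libraries, Myc and Ier2 (9.52%, 95% interval 1.17 to 30.4), at a median H3K4me2 width of 7217 bp, a share whose interval holds the 6.61% of all genes. By replicate 1 alone, without replicate 2, it was 28.6% against 11.5% of all coding genes, and by replicate 2 alone 14.3% against 8.11%. Myc, the growth regulator, ranked 209 and 309, at 39.1% and 39.2% of 5640 bp, and Ier2 473 and 494. Atf3, Fosb, Fosl2, Junb and Stat3 had one in 1 library. None of 22 hepatocyte identity and secreted protein genes (0%, up to 15.4%) and none of 23 hepatic metabolism genes (0%, up to 14.8%) had a summit in either library, at median widths of 12395.5 and 8984 bp. For all coding genes the share was 6.61% with a summit in both libraries and 11.5% by replicate 1 alone. Their share for either library is larger than each of these, as 828 further genes had a summit in 1 library. The upper limits of 15.4% and 14.8% lie above 6.61% and 11.5%. The lists were also chosen with results known, so no difference is read from the shares of 0. Alb had 7451 bp and Cebpa 8363 bp of H3K4me2 at the start, without a summit. Hnf4a had marked starts without a summit at position 163506857 in a region of 2183 bp with no H3K27ac, which entered the list's median, and at 163547155 in one of 13510 bp.

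Arid1a itself had a summit in replicate 2 only, 658 bp from its start, with rank 1050 and a fold enrichment of 4.19 in a region of 8105 bp. Ccnd1, cyclin D1, had one in both libraries on the same position, 79.8% of 11329 bp, which is 1760 bp from the marked gene end. The widest H3K4me2 regions without any summit were those of Rxra, a nuclear receptor, with 34352 bp, Myh9, non-muscle myosin, with 32400 bp, C3, a complement protein, with 28783 bp, Dgat2, a triglyceride synthesis enzyme, with 28219 bp, Slc39a14, a zinc transporter, with 26144 bp, and St3gal4, a sialyltransferase, with 25952 bp. Each was wider than the widest region with a summit in both libraries, that of Ell.

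Where the reference gave no strand or start for a gene, the gene end with more H3K4me2 stood for its start, which applied to 4208 of the coding genes, Myc, Ccnd1 and E2f4 among them. Region edges are those of the deposited calls, and signal within a region was not analysed here.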

How the data were processed

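Per the submitters' processing notes the build is mm10 and the tools include MACS2 2.0.10.20131216, Bowtie2 2.2.3, HOMER and Picard, each without a stated role. Each deposited list holds the peaks of 1 library, so peaks were not called on pooled replicates. The deposited lists give each peak's position, its fold enrichment (a ratio), its −log10 p-value and −log10 q-value and a score, and the E2f4 lists the summit's offset. The lowest deposited −log10 q-value was 1.34 and 1.33 in the E2f4 lists and 1.00 in both mark lists. The score was not used. No counts are in the lists, so depth is unknown. Inputs and knockout lists were not used here.

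The summit, the start plus its offset, was placed in regions on chromosomes 1 to 19 with Python 3.11.15, numpy 2.4.6, pandas 2.3.3 and scipy 1.17.1, and the functions were tested on simulated data. Neighbouring regions of a mark were at least 609 (H3K4me2) and 593 bp (H3K27ac) apart. Starts of 16457 coding genes came from RefSeq's promoter table (GRCm38.p6, the coordinates of mm10). For another 4208 the gene end with more H3K4me2 within 2000 bp was used (both ends for 1169). The 8 gene lists hold 256 entries, and a gene with several starts entered once, by the start with summits in most libraries and then the lowest coordinate. The members and lists were chosen with earlier results of these data known. With 2 E2f4 libraries of 1 group no test was run. Shares have exact Clopper-Pearson 95% intervals.

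Named by rule were, among H3K4me2 regions, the 10 strongest with a summit in both libraries by mean rank of −log10 q-value, the 5 widest, 5 narrowest, 5 most and 5 least off centre (from 500 bp), the 5 with most peaks, the 6 widest without a summit, up to 4 members a list, and Alb, Hnf4a, Cebpa, E2f4, Arid1a, Ccnd1 and Myc. One region so named is not reported here. Other list members, and Pold1, were named after their values were seen. Alternatives were −log10 q-values of at least 5 and 10, merging regions under 1000 bp apart, overlap or midpoint in place of the summit, lists of equal length, X and Y, regions with a gene start, and each E2f4 library left out.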

Additional observations from a re-analysis of the deposited data

Results flagged for a closer look

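The E2f4 lists also held peaks on the mitochondrial chromosome, outside the autosomes: 16 in replicate 1 and 6 in replicate 2. They were singled out because they are signal in a place the comparisons do not use. The series has an input for each E2f4 wild-type library, but the inputs were not used here, so these peaks were not set against them. Their median fold enrichment was 1.401 and 1.34, against 6.75 and 9.89 for autosomal peaks.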

How the results depend on the processing

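Each value below is the mean over both E2f4 libraries. Of 113 alternative values, 86 stayed within the spread between the libraries or, for gene lists, within the counting interval. For summit shares, region shares and positions, leaving out 1 library returns the value of the other. That value lies within the spread by construction, so these alternatives, counted among the 86, say nothing about stability. With E2f4 peaks of a −log10 q-value of at least 10, 98.1% of summits lay in H3K4me2 (main 88.0%), 1.01% of H3K4me2 and 0.908% of H3K27ac regions were occupied, and the median distance from the middle of H3K4me2 regions was 16.3% of the width. The width ratio was then 2.93 for H3K4me2 and 1.85 for H3K27ac, and with a gene start 0.987, which turned the direction, and 0.766. At a limit of 5 for E2f4 the H3K4me2 ratio was 3.08. With mark regions of a −log10 q-value of at least 5, 66.7% of summits lay in H3K27ac, 4.99% of H3K4me2 and 5.11% of H3K27ac regions were occupied, and the width ratio was 1.45 and 0.926, the latter turning the direction. With a gene start the H3K4me2 ratio was then 1.01. Merging regions under 1000 bp apart gave width ratios of 3.07 and 1.93 and a median distance from the middle of 19.2% in H3K27ac. Restricting to regions with a gene start gave 1.08 for H3K4me2 and 0.898 for H3K27ac, which turned the direction, and lists of equal length gave 1.06 for H3K4me2 with a gene start. The cause of these shifts was not tested. The alternatives among regions with a gene start were added after seeing the data.

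With either library left out, so that a region without a summit of the other counted as unoccupied, the H3K4me2 width ratio was 3.09 to 3.22, and 1.05 to 1.09 with a gene start. A gene then needs a summit in a single library, and occupancy was 61.7% to 85.1% for G1/S and DNA replication, 57.9% to 78.9% for the E2F, RB and DREAM list and 8.11% to 11.5% for all coding genes. Regeneration and immediate early genes went from 9.52% to 14.3% and 28.6%. Hepatocyte identity and hepatic metabolism stayed at 0%.

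No paired analysis was possible because only wild-type libraries were used, so no groups share replicate numbers. Depth is unknown, and a deeper library can yield more and weaker peaks. Each mark had 1 library, so region widths and edges have no replicate spread. Summits of the 2 libraries share the same regions and are not independent of each other.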

Other observations

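On chromosome X the libraries had 34 and 19 E2f4 peaks, with median fold enrichments of 7.06 and 10.4, near the autosomal medians, and on chromosome Y none. Of the summits in neither mark, 27 of 288 in replicate 1 (9.38%) and 11 of 55 in replicate 2 (20.0%) had an H3K4me2 region within 1000 bp.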
